A study of Oryza sativa with 4 samples.

Results

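Of the 1442 genomic regions that the authors called confident for OsMADS2 in young rice panicles, 651 (45.1%, 95% Wilson interval 42.6 to 47.7%) lay across the annotated start of at least 1 gene. They were chosen by position alone. A region counted when the authors' gene table labelled it either as overlapping a gene's start or as holding a whole gene, and no enrichment value entered the choice. The 651 regions covered the starts of 682 genes, which were 26.3% of the 2589 genes in that table. The overlapping label accounted for 618 of these region and gene pairs, and the whole-gene label for 64 pairs in 58 regions. The other 791 confident regions lay inside, beside or across the end of genes and served as the comparison.

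OsMADS2 is a MADS-domain transcription factor of the PISTILLATA class. Such proteins act with other MADS-domain partners as dimers and larger complexes, bind the DNA element known as the CArG box, and are known for specifying stamens and petals, whose place in grass florets is taken by the lodicules. A gene's start is where its transcription begins, and the DNA just before it forms the core promoter.

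The chromatin came from wild-type TP309 panicles 0.3 to 2 cm long, about 200 mg of tissue fixed with 1% formaldehyde. Micrococcal nuclease left chromatin fragments of 150 to 900 bp. The OsMADS2 libraries, IP5 and IP6, were immunoprecipitated from 8 µg of chromatin with 6 µg of an affinity-purified antibody against OsMADS2. The mock libraries, mock 5 and mock 6, were handled alike with rabbit IgG. All 4 libraries were wild type, and no library from plants lacking OsMADS2 was analysed here. Peak lists carry no expression values, so the tissue label could not be set against marker genes.

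The IP libraries held 9142837 (IP5) and 15934402 (IP6) uniquely mapped reads, and the mock libraries 13248694 (mock 5) and 16742118 (mock 6). The authors called peaks in 3 single pairs of libraries, with 24169 peaks for IP5 over mock 5, 58213 for IP5 over mock 6 and 10602 for IP6 over mock 6. The first and last of these share no library and are called the independent calls below. IP5 over mock 6 shares a library with each of them. A confident region required a peak in all 3 lists, so the presence of a peak is no finding. Fold, the authors' enrichment of IP over mock at a peak, carries no replicate error and describes regions within 1 list. Each fold below is the highest among the peaks that overlap a region by at least 1 bp.

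Regions at covered starts leaned towards the gene. In 530 of the 682 pairs (77.7%, exact interval 74.4 to 80.8%) more of the region lay on the gene side of the start than upstream of it. The gene side runs downstream of the start and, for genes held whole, on past their end. With the overlapping label alone the count was 470 of 618 (76.1%). The median extent over the 682 pairs was 436.5 bp on the gene side and 195 bp upstream. For 173 starts the region reached no more than 50 bp upstream. The median of the region's midpoint was 132 bp into the gene, with quartiles at 20.9 and 264 bp.

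The strongest peak of each list was placed in the same way, as the distance of its midpoint from the start in the direction of the gene. In IP5 over mock 5 the median was 151 bp into the gene (95% interval 139 to 168 bp, quartiles 71.4 and 268 bp), and 580 midpoints (85.0%) were on the gene side. In IP5 over mock 6 the median was 130 bp (120 to 137 bp), with 535 (78.4%) on the gene side. In IP6 over mock 6 it was 66 bp (51.5 to 77.5 bp, quartiles -90.4 and 184 bp), with 422 (61.9%) on the gene side. All 3 medians were on the gene side, and IP6 peaks were spread more evenly about the start than IP5 peaks. The stretch from the start to 250 bp inside held 393, 387 and 292 midpoints in the 3 lists, in the order above. The 250 bp just upstream held 75, 111 and 197. Regions were chosen for lying across a start, so the gathering of midpoints near it is no finding.

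**Figure D1:**
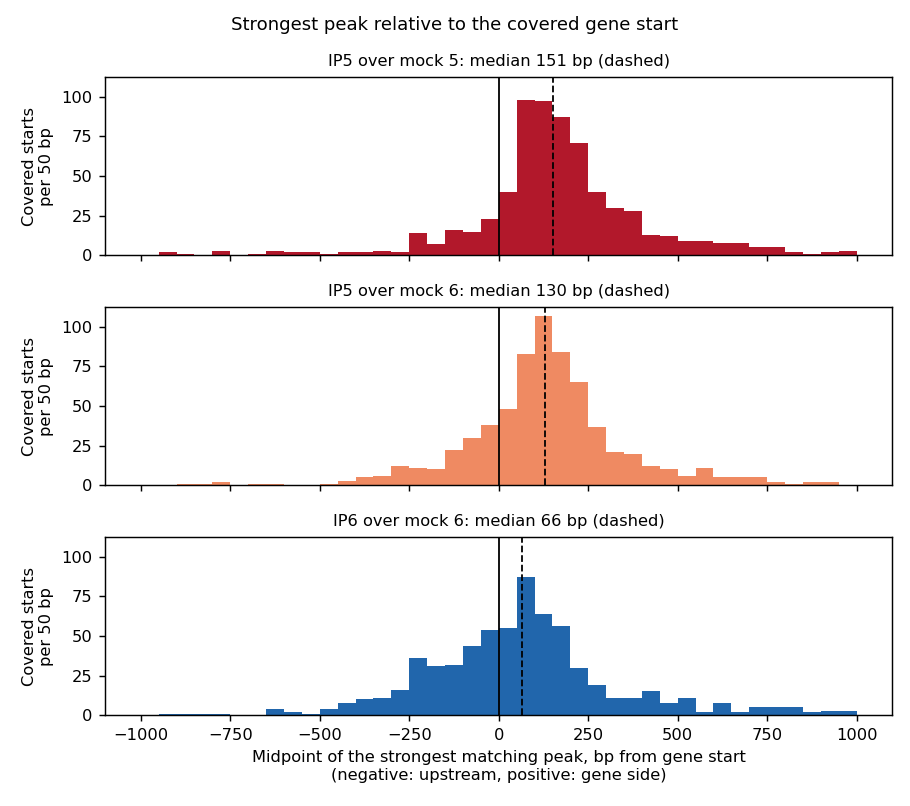
Position of the strongest matching peak at 682 covered gene starts, in 1 panel per peak list. The x axis is the distance of the peak's midpoint from the gene start in bp (negative is upstream), the y axis the number of starts per 50 bp, the solid line the start and the dashed line the median. The IP5 histograms fall off sharply upstream of the start (medians 151 and 130 bp), and the IP6 histogram extends farther upstream (median 66 bp). Midpoints more than 1000 bp away (15, 12 and 23 starts) are not drawn.

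At the same start, the IP5 over mock 5 peak lay farther into the gene than the IP6 over mock 6 peak in 442 of 682 pairs (64.8%), by a median of 62.25 bp (40 to 81 bp). The order held with the same mock on both sides: IP5 over mock 6 lay farther in than IP6 over mock 6 in 435 pairs (63.8%), by a median of 45.75 bp (30 to 63.5 bp). It held for the 551 pairs with exactly 1 peak in each independent call, where the IP5 over mock 5 median was 139.5 bp and the IP6 over mock 6 median 65 bp. It held on both strands, with medians of 163.75 and 61.75 bp for genes on the plus strand and of 143.75 and 68.25 bp on the minus strand. The replicates therefore differed in where the peaks lay. With 1 library of each kind per replicate number, replicate and library depth cannot be told apart here.

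Because regions were merged from peaks of all 3 lists, a covered start need not lie under a peak of every list. The start itself was under an IP5 over mock 5 peak at 402 genes (58.9%), under an IP5 over mock 6 peak at 553 (81.1%) and under an IP6 over mock 6 peak at 377 (55.3%). Both independent calls had a peak on the start at 211 genes (30.9%, 27.5 to 34.6%), and all 3 lists at 198. IP5 over mock 5 alone of the independent calls covered 191 starts, and IP6 over mock 6 alone covered 166. That every covered start was under a peak of at least 1 list is no finding, since regions are merged peaks. Where the strongest peak missed the start, it lay wholly on the gene side at 263 starts and wholly upstream at 36 in IP5 over mock 5. In IP6 over mock 6 those counts were 209 and 124.

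The edge of the definition fell inside this distribution. Just inside it, the smallest overlap was 1 bp upstream of the start and 4 bp on the gene side. Just outside it, 246 of the 791 other regions had an edge within 100 bp of a start that they did not count as covering. In 225 of those 248 pairs the region lay on the gene side, and in 23 it lay upstream. At 8 of the pairs the start was the region's last base, which the authors' labels put inside the gene.

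Regions across starts were wider than the others. Their median width was 686 bp (quartiles 465 and 1017.5 bp, range 204 to 5088 bp), against 466 bp (337 and 681 bp, range 196 to 2300 bp) for the other regions. The difference of medians was 220 bp (171 to 263 bp). A wider region has more chance to reach a start, so width and position are linked by geometry and no test was made. In the narrowest width quartile of all confident regions (196 to 372 bp) 25.1% covered a start. The share was 37.5% at 373 to 553 bp, 51.8% at 554 to 825 bp and 66.2% at 826 to 5088 bp. Single peaks were wider too: the strongest peak had a median width of 366 bp in start regions and 307 bp in other regions in IP5 over mock 5. In IP6 over mock 6 the medians were 288 and 250 bp.

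**Figure D2:**
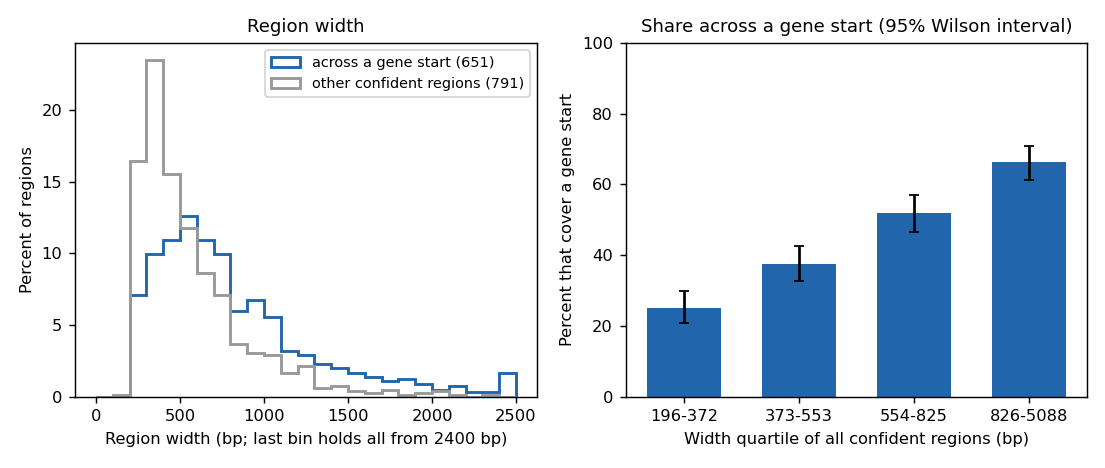
Width of confident regions. Left, percent of regions per 100 bp of width for the 651 regions across a gene start (blue) and the 791 others (grey), with the widest regions gathered in the last bin. Right, percent of regions that cover a gene start in each width quartile of all confident regions, with 95% Wilson intervals for counting error: the share is 25.1% in the narrowest quartile and 66.2% in the widest.

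The narrowest members belonged to genes without a symbol. Os03g0857100 on chromosome 3 had a region of 204 bp (36174740 to 36174943), Os01g0191400 one of 212 bp (chromosome 1, 4891135 to 4891346) and Os06g0161900 one of 217 bp (chromosome 6, 3131194 to 3131410). The widest, 5088 bp on chromosome 7 (23052469 to 23057556), covered the starts of Os07g0571100 and Os07g0571200. The next, 4332 bp, covered those of OsC3H53, a CCCH-type zinc finger gene, and Os07g0682500. The third, 3181 bp, held the whole of HMGB1, which encodes a high-mobility-group chromatin protein.

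Most regions held a single peak of each list, and several peaks were more frequent in start regions than in the others. More than 1 IP6 over mock 6 peak fell in 93 start regions (14.3%), against 44 other regions (5.56%), a difference of 8.72 percentage points (5.65 to 11.9). For IP5 over mock 5 the counts were 47 (7.22%) and 25 (3.16%), and for IP5 over mock 6 they were 61 (9.37%) and 29 (3.67%). Start regions were also wider, and a wider region has room for more peaks. These counts were not split by width. The strongest peaks of the independent calls overlapped each other in 553 start regions (84.9%), against 737 other regions (93.2%), a difference of -8.23 points (-11.6 to -5.01). Their midpoints were a median of 157.5 bp apart in start regions and 92 bp in the others. Within width quartiles the gap varied. In the widest, 173 of 239 start regions (72.4%) and 92 of 122 other regions (75.4%) had overlapping strongest peaks, and in the next widest 159 of 186 (85.5%) and 158 of 173 (91.3%) did. At 373 to 553 bp the shares were 96.3% of start regions and 96.0% of the others. In the narrowest, which leaves little room for peaks not to overlap, all 91 start regions and all 271 other regions did.

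Enrichment in regions across starts was much like that in other regions. The median fold in IP5 over mock 5 was 3.31 in start regions and 3.32 in other regions, a difference of -0.019 (-0.20 to 0.16). Start and other regions had medians of 3.86 and 3.82 in IP5 over mock 6, which differed by 0.037 (-0.085 to 0.16). For IP6 over mock 6 the start median was 3.19 and the other median 3.01, which differed by 0.18 (0.088 to 0.28). Only the IP6 interval left out 0, and among regions between the quartiles of width that difference was 0.10 (-0.0053 to 0.26). These intervals cover the spread over regions and not that between replicates.

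A fold of at least 4 in both independent calls occurred in 49 start regions (7.53%) and 60 other regions (7.59%), beside 7.56% of all 1442. With the minimum set to 3, the counts were 232 start regions and 268 others, beside 34.7% of all regions. With it set to 5 they were 10 and 10, beside 1.39%. Start regions thus stood at the background share at each of these folds. Taken singly, a fold of at least 4 was reached by 186 start regions (28.6%) and 245 others (31.0%) in IP5 over mock 5. In IP6 over mock 6 it was reached by 135 start regions (20.7%) and 124 others (15.7%), a difference of 5.06 points (1.07 to 9.11).

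Wider start regions had higher folds in IP6 over mock 6 and slightly lower folds in IP5 over mock 5. From the narrowest to the widest width quartile, the median IP6 over mock 6 fold of start regions was 2.92, 3.05, 3.12 and 3.51. The median IP5 over mock 5 fold was 3.57, 3.45, 3.21 and 3.06. Across the 651 start regions Spearman's rho of width with the IP6 over mock 6 fold was 0.27 (Pearson's r 0.30), and with the IP5 over mock 5 fold it was -0.098 (r 0.0074). The folds of the independent calls were nearly unrelated in order across start regions (rho 0.070, r 0.18), as against rho 0.17 and r 0.24 over the other 791 regions. These are descriptions across regions that were all chosen for having a peak in every list. A region's place in the order of 1 replicate said little of its place in the other.

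**Figure D3:**
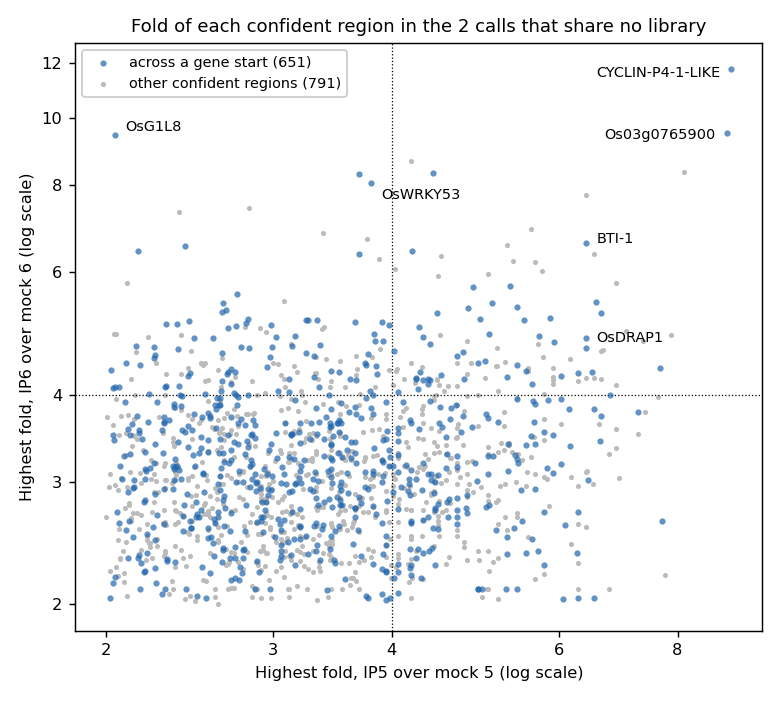
Highest fold of each confident region in the independent calls, IP5 over mock 5 on the x axis and IP6 over mock 6 on the y axis, both on log scales. Blue points are the 651 regions across a gene start, grey points the 791 other regions, and dotted lines mark a fold of 4. Most start regions lie below 4 on both axes, 49 reach it on both, and the regions at CYCLIN-P4-1-LIKE and Os03g0765900 stand at the upper right.

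The highest start regions were ordered by the smaller of their independent folds. The first lay at CYCLIN-P4-1-LIKE (Os07g0231500), named as a P-type cyclin gene, on chromosome 7 (7313351 to 7314608). Its fold was 9.11 in IP5 over mock 5, 9.11 against mock 6, and 11.7 for IP6 over mock 6. The region ran from 201 bp upstream of the start to 1057 bp into the gene, whose whole length is 1134 bp. Peaks of all 3 lists lay on the start itself. The equal folds over both mocks were not unique to it: 17 start regions (2.61%) and 20 other regions (2.53%) had the same IP5 fold over mock 5 and mock 6 to 5 decimals. Exact folds also recurred between start regions in IP5 over mock 5, such as 4.6793 and 5.4181, so regions could tie in that list. Why folds recurred was not tested.

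The second region, at Os03g0765900 on chromosome 3 (31723337 to 31725797), had folds of 9.01, 8.17 and 9.49 in the same order of lists. It lay mostly upstream, with 1857 bp before the start and 604 bp inside the gene. Its strongest peaks were centred upstream, at -783 bp (IP5 over mock 5), -1185 bp (IP5 over mock 6) and -615 bp (IP6 over mock 6) from the start, against the general lean into the gene. A further confident region of this gene lay 2833 bp upstream, with an IP5 over mock 5 fold of 2.62 and an IP6 over mock 6 fold of 2.83.

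The third region sat between BTI-1 (Os08g0520000) and Os08g0520100 on chromosome 8 (25852602 to 25854117), with folds of 6.40, 6.40 and 6.61. The genes point away from each other, their starts are 766 bp apart, and both starts are covered. The IP5 peaks were centred 89.5 bp (over mock 5) and 82.5 bp (over mock 6) inside BTI-1, while the IP6 peak was centred between the starts, at -199 bp from that of BTI-1 and -567 bp from that of Os08g0520100. Peaks of all 3 lists lay on the start of BTI-1, and only a peak of IP5 over mock 5 lay on that of Os08g0520100.

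Os12g0623600 followed with folds of 6.56, 5.52 and 5.44 in a region of 841 bp. OsSKIN1, which encodes a protein known to bind the sugar-starvation kinase SnRK1A and hold back its signalling, had 5.42, 4.50 and 5.35. Its region (chromosome 9, 19303225 to 19304936) covered 1710 bp of the gene and 2 bp upstream, and held the whole of Os09g0499201 on the opposite strand. The IP6 over mock 6 peak was centred 1046.5 bp into OsSKIN1. It lay on the start of Os09g0499201 and not on that of OsSKIN1. These regions differed widely in extent, and the next was narrow. Os03g0194500 had 5.33, 5.79 and 5.74 in 375 bp. Os11g0235400 had 6.65, 5.52 and 5.24 in only 257 bp, of which 226 bp were inside the gene. Os02g0651500 had 5.87, 5.13 and 5.16, and Os12g0210800 had 5.51, 4.41 and 5.13.

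The tenth, OsPTR2 (also OsNPF2.2), encodes a nitrate transporter known for unloading nitrate from the xylem. Its region on chromosome 12 (27349295 to 27351579) had folds of 5.10, 6.79 and 5.43, and its peaks were centred 95, 59.5 and 222 bp inside the gene. OsPTR2 also had a confident region within the gene, with an IP5 over mock 5 fold of 4.26 and an IP6 over mock 6 fold of 3.47. Another region, 1482 bp downstream, had 2.42 and 6.54. That region lay across the start of the neighbouring gene Os12g0638100. Of the 682 genes with a covered start, 110 had any further region. The whole gene table held 2862 region and gene pairs for its 2589 genes. The share of all its genes with several regions was not counted. No gene had its start covered by more than 1 region.

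Some regions covered more than 1 start. Of the 651, 621 covered 1 start, 29 covered 2 and 1 covered 3. In 11 of these 30 regions the genes pointed away from each other without overlapping, their starts a median of 341 bp apart (71 to 766 bp). In 17 the genes overlapped on opposite strands, and in 2 they lay on the same strand. Peaks carry no strand, so which of the genes a shared region belongs to cannot be told apart. The highest shared regions after BTI-1 and OsSKIN1 were at Os07g0571100 and Os07g0571200 (4.24, 4.97 and 4.23) and at Os02g0686300 and Os02g0686400 (3.75, 2.41 and 4.41). Os01g0799000 and Os01g0799100 came next (5.91, 5.88 and 3.50).

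Covered starts showed no lean to either strand: 330 of 682 genes (48.4%, exact interval 44.6 to 52.2%) were on the plus strand and 352 on the minus strand. Among the other region and gene pairs 49.7% were on the plus strand. By chromosome, the share of confident regions that covered a start ran from 34.9% on chromosome 9 (25.6 to 45.7%) to 57.5% on chromosome 5 (48.3 to 66.2%). The whole-gene label went to short genes, with a median length of 794 bp (191 to 2719 bp), against 3214 bp (240 to 17064 bp) for genes with the overlapping label. The highest whole-gene region was that across the start of OsSKIN1, which held the whole of Os09g0499201. Next came those at OsDREB6, an AP2/ERF gene of the DREB class (4.82, 5.25 and 5.34), and at Os08g0517001 (5.54, 5.54 and 4.33). Os07g0571200 and Os05g0420000 (4.31, 2.53 and 4.21) completed the 5.

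Gene groups were read from the symbols in the gene table, and each count stands beside the 26.3% of all genes in that table, or the 30.8% of those with a symbol (271 of 879), whose start was covered. Genes with a covered start carried a symbol more often, 271 of 682 (39.7%) against 608 of 1907 (31.9%) among genes without one, a difference of 7.85 points (3.67 to 12.1). Across all groups 140 of 327 genes (42.8%) had a covered start. Without the 7 lists drawn up after coverage had been seen, 111 of 283 (39.2%, 33.7 to 45.0%) did. The other 20 lists were rewritten too and chosen with earlier results of these data known. The interval covers counting error and not the choice of lists. Counts for most groups are small, and none was tested. The ethylene, jasmonate, corepressor and Mediator, PP2C, aquaporin, RALF and heat shock factor lists are those 7, and their counts only describe. Folds given in threes keep 1 order: the IP5 list over mock 5, then the IP5 list over mock 6, then the IP6 list. The genes called highest in a group are so by the smaller of their independent folds.

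**Figure D4:**
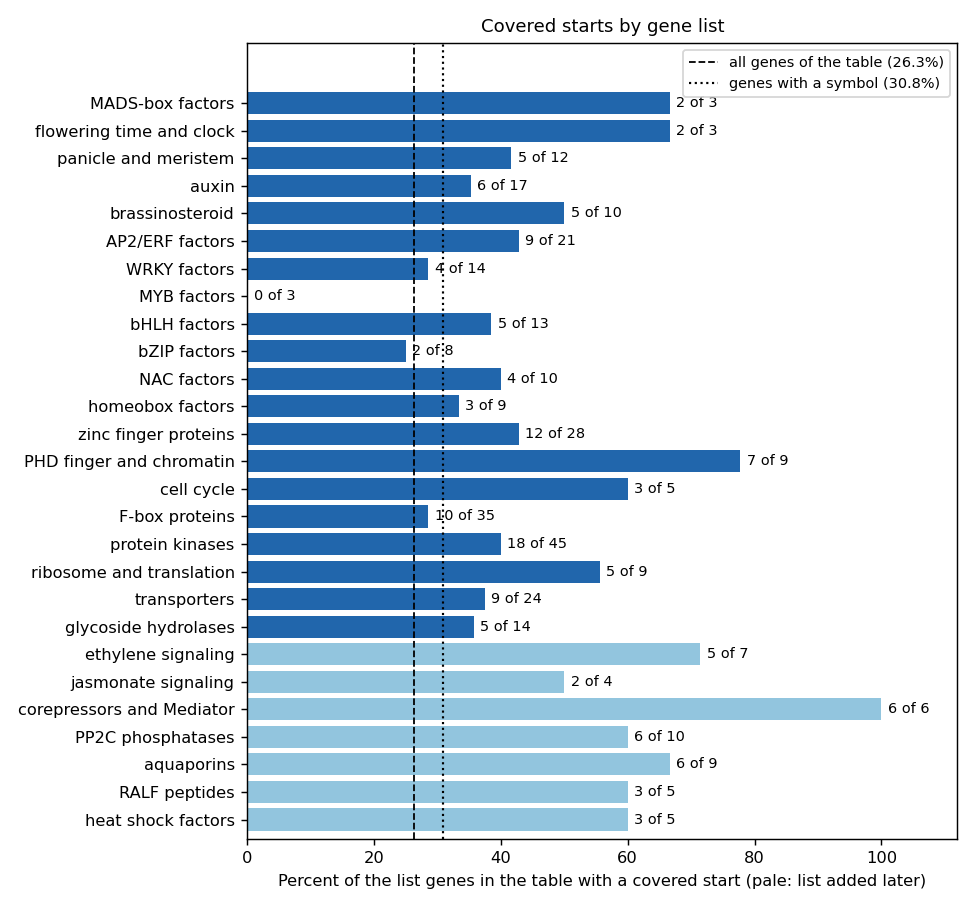
Percent of the genes of each list in the authors' gene table whose start is covered by a confident region, with the counts beside the bars. Dashed and dotted lines mark all genes of the table (26.3%) and those with a symbol (30.8%), and pale bars are lists drawn up after coverage had been seen. Groups with many genes (18 of 45 protein kinases, 10 of 35 F-box genes, 12 of 28 zinc finger genes) lie nearer the lines than most of the smallest groups.

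Among regulators of flowering and the panicle, 2 of 3 MADS-box genes had a covered start, OsMADS14 and OsMADS56. OsMADS14, an APETALA1-like gene of meristem and floral identity, had folds of 2.25 in IP5 over mock 5, 3.27 against mock 6, and 2.47 for IP6 over mock 6. OsMADS56, a SOC1-like regulator of flowering time, had 2.11, 3.19 and 2.90. Both were below the medians of start regions in every list (3.31, 3.86 and 3.19). OsGI, the rice GIGANTEA gene of the clock and flowering pathway, had 3.11, 2.78 and 4.03, and the clock gene OsPRR95 had 2.20, 3.18 and 3.31.

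In the panicle and meristem group 5 of 12 starts were covered. OsSPL13, an SBP-domain gene known for grain length, had 3.45, 2.46 and 3.81. OsSNB, the AP2-type gene SUPERNUMERARY BRACT that times the change to a floret meristem, had 3.04, 3.32 and 4.05. OsREL2, a TOPLESS-like corepressor, had 2.75, 4.63 and 3.97. The fourth, OsG1L8, a gene of the ALOG family, had unlike values: 2.04 in IP5 over mock 5, near the lowest of any start region (2.02), 4.76 for IP5 against mock 6, and 9.46 for IP6 over mock 6. OsSPL14, known as a regulator of panicle branching and tillering, had the lowest IP6 over mock 6 fold of the group at 2.04. These last genes were named after their values were seen.

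In the auxin group 6 of 17 starts were covered, among them the response factor OsARF1 (4.31, 4.24 and 4.85), the receptor gene OsAFB2 (3.19, 5.02 and 3.04) and OsIAA10 of the Aux/IAA repressors (4.30, 2.31 and 2.92). In the brassinosteroid group 5 of 10 were covered, led by OsBZR2 (2.66, 4.25 and 5.42) and OsBZR1 (2.57, 2.85 and 3.70), which encode transcription factors of the pathway, and by OsBAK1-4 (2.52, 3.26 and 2.26). All 5 brassinosteroid genes had an IP5 over mock 5 fold of at most 2.66, under the start-region median of 3.31. The group medians in the other lists, 4.18 (IP5 against mock 6) and 3.46 (IP6 over mock 6), lay above the start-region medians of 3.86 and 3.19. Single genes varied. OsBAK1-4 was below the start-region median in every list, OsBZR1 also in IP5 against mock 6, and OsGSK6 also in IP6 over mock 6 (3.14). In the ethylene group 5 of 7 were covered. Its highest were OsEBF2 (4.95, 4.76 and 5.14), named for the F-box proteins that mark EIN3-type factors for degradation, the receptor gene OsETR2 (2.44, 5.86 and 4.25), and OsETOL2 (4.26, 3.58 and 2.41). Of 4 jasmonate repressor genes 2 were covered, OsJAZ9 (4.17, 4.67 and 2.98) and OsJAZ7 (2.32, 3.69 and 2.31).

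Families of transcription factors ranged widely in the fold of the regions across their starts. Over 8 families (MADS, AP2/ERF, WRKY, MYB, bHLH, bZIP, NAC and homeobox) 29 of 81 genes (35.8%) had a covered start, with median folds of 2.63, 3.63 and 3.06. These medians lay below those of all start regions in each list. AP2/ERF genes had 9 of 21 starts covered, the highest at OsDRAP1, a DREB-type gene known from drought tolerance (6.40, 4.41 and 4.82), OsDREB6 and OsERF74 (4.50, 3.33 and 3.85). The WRKY genes had 4 of 14 starts covered. OsWRKY53, known from defence and brassinosteroid signalling, had 3.80, 5.06 and 8.07, OsWRKY87 had 2.37, 4.79 and 5.05, and OsWRKY68 had 2.25, 3.47 and 2.88.

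Of 13 bHLH genes 5 were covered, led by OsPIF4 (3.20, 2.80 and 2.59), OsbHLH150 (3.05, 4.06 and 2.56) and OsIRO3, a repressor of iron-deficiency responses (2.26, 3.98 and 3.90). The covered bZIP genes, 2 of 8, were OsbZIP57 (3.84, 5.87 and 4.77) and OsbZIP52 (2.07, 2.49 and 3.17). Of 10 NAC genes 4 were covered, with ONAC037 (3.85, 4.67 and 2.69), the stress-responsive OsNAC6 (2.63, 4.70 and 3.96) and OsNAC8 (2.61, 5.14 and 3.59) the highest. The homeobox genes had 3 of 9 covered, Oshox9 (3.50, 5.04 and 2.85), OsROC5, known from leaf rolling (2.70, 2.96 and 3.23), and Oshox2 (2.06, 2.83 and 2.62). None of 3 MYB genes was covered.

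The chromatin and cofactor lists were small, and their shares only describe. Of 9 genes for PHD-finger and other chromatin proteins 7 were covered, with median folds of 3.33, 4.06 and 4.00. Before it was rewritten for symbols, that list matched 3 genes, of which 2 were covered. OsPHD35 had 4.75, 3.69 and 4.61, HMGB1 had 3.92, 4.84 and 4.78, and OsPRMT6a, for a protein arginine methyltransferase, had 3.43, 4.06 and 4.00. All 6 genes of the corepressor and Mediator list, made with coverage known, were covered. Its highest was OsGIF1 (5.42, 3.73 and 4.41), a coactivator gene despite the list's name. Next came the Mediator subunit gene OsMED4 (4.39, 4.31 and 3.93) and OsMED15_2 (4.19, 4.19 and 3.65). In IP6 over mock 6 the list's 6 folds ran from 3.64 to 4.52, all above the start-region median of 3.19. In IP5 over mock 5 they ran from 2.24 to 5.42, on both sides of the median of 3.31.

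Zinc finger genes had 12 of 28 starts covered, with OsDof18 (3.45, 2.52 and 3.39), OsDof22 (6.16, 2.69 and 3.38) and OsGATA19 (4.90, 5.66 and 3.19) the highest. Cell-cycle genes had 3 of 5 covered: beside CYCLIN-P4-1-LIKE these were the D-type cyclin gene CycD6;1 (3.98, 4.99 and 3.26) and CDKF;3 (3.48, 3.31 and 2.32). F-box genes, whose products choose proteins for degradation, had 10 of 35 covered, a share of 28.6% near the 26.3% of all genes. Apart from OsEBF2 the highest were OsFbox052 (5.71, 5.12 and 4.86) and OsFbox053 (4.56, 3.44 and 3.48). Protein kinases had 18 of 45 covered (40.0%), led by the receptor-like cytoplasmic kinases OsRLCK204 (6.14, 4.07 and 3.82), OsRLCK166 (4.06, 4.27 and 3.43) and OsRLCK315 (4.68, 4.66 and 3.27). Of 10 PP2C phosphatase genes 6 were covered, the highest OsPP2C47 (3.53, 2.37 and 3.65), OsPP2C21 (2.30, 4.43 and 3.65) and OsPP2C11 (2.22, 5.11 and 4.01). OsPP2C37, named after its values were seen, had 4.98, 8.00 and 2.11, the group's highest in both IP5 lists and its lowest in IP6 over mock 6.

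Of 9 aquaporin genes, for water channels, 6 were covered. OsPIP2;1 (3.13, 5.00 and 3.51), OsPIP1;1 (3.02, 2.90 and 3.53) and OsPIP2;6 (2.67, 6.52 and 5.30), all of the plasma-membrane type, led it. The transporter group had 9 of 24 covered, among them OsPTR2, the sugar transporter gene OsSWEET4 (3.80, 5.24 and 3.83) and OsABCF4 (3.45, 3.72 and 3.13). Genes for ribosomal proteins and translation factors had 5 of 9 covered, with RPS9 (3.95, 4.40 and 3.91), OsRPL23A (4.18, 4.63 and 3.69) and OseIF1A-2 (2.98, 3.87 and 2.92) the highest. Their 5 folds in IP6 over mock 6 ran from 2.67 to 3.91, while those of the 6 aquaporin genes ran from 2.05 to 5.30.

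The glycoside hydrolase group, whose enzymes act on wall polymers and starch, had 5 of 14 covered, the highest OsXTH3 (3.97, 3.78 and 3.33), the beta-amylase gene OsBmy4 (3.21, 4.73 and 2.99) and OsGH9B11 (2.76, 3.29 and 3.11). Of 5 genes for RALF signalling peptides 3 were covered, OsRALF-37 (5.66, 3.69 and 2.93), OsRALF-1 (2.66, 3.41 and 3.20) and OsRALF-4 (3.33, 3.69 and 2.44). Of 5 heat shock factor genes 3 were covered, OsHsfA2e (2.98, 3.67 and 3.41), OsHsfA2d (2.88, 2.84 and 2.98) and OsHsfC1b (2.70, 4.21 and 2.55).

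**Figure D5:**
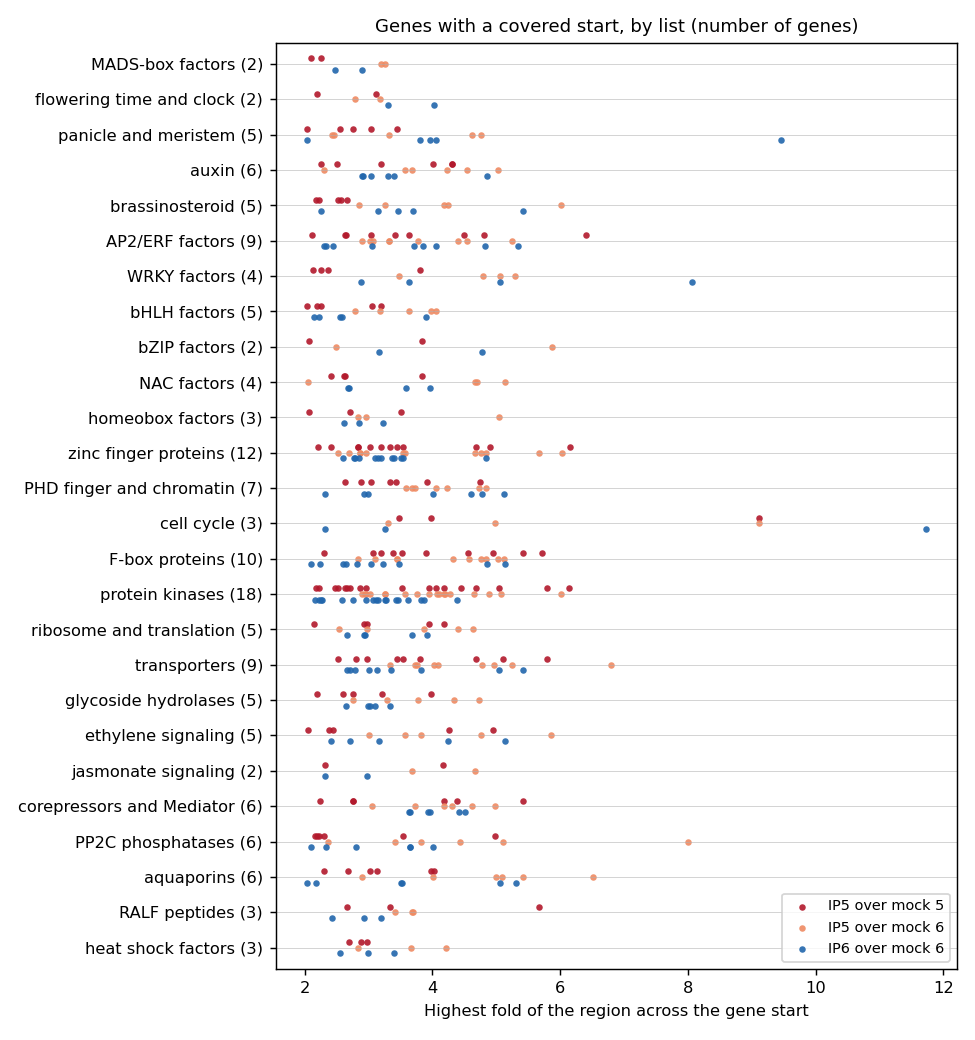
Highest fold of the region across the start of each listed gene, with 1 row per gene list and the number of genes in brackets. Colours mark the 3 peak lists. In most groups the folds lie between 2 and 6, CYCLIN-P4-1-LIKE in the cell-cycle row stands apart at 9.11 and 11.7, and OsG1L8 (9.46) and OsWRKY53 (8.07) stand out in IP6 over mock 6.

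In the authors' deposited table of 77 gene ontology terms, 17 terms listed at least 20 genes, and the share of those genes with a covered start had a median of 35.2%. In the authors' deposited table it was lowest for nucleolus (4 of 20) and highest, 47.8%, for response to osmotic stress (22 of 46), and 16 of the 17 terms stood above 26.3%. Among the genes that the authors' deposited table lists for inflorescence development, 16 of 49 (32.7%) had a covered start, and for transcription factor activity 29 of 73 (39.7%) had one. Terms share genes, and genes without an annotation enter none of them, so these shares are descriptions.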

How the data were processed

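The members and gene lists were chosen with earlier results of these data known. The submitters' processing notes list MACS2, Bowtie2, fastp, deepTools and SAMtools, and state no version. No source used here names the genome build. Coordinates are those of the deposited tables. Per the file headers, the authors merged peaks shared by all 3 lists and assigned them to genes. Each list came from single libraries, not pools. The authors deposited read counts per library, and for each peak a fold ratio of IP over mock and −log10 values of p and q. Region widths, positions and gene labels were also deposited by the authors.

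From these files, peaks were matched to regions at 1 bp of overlap, with matched counts checked against bedtools 2.31.1. Gene starts were taken from the coordinates and strand in the authors' table. Shares have Wilson intervals and shares of covered starts exact Clopper-Pearson intervals. Differences of shares have Newcombe intervals, and medians intervals from order statistics, combined for differences of medians. All are at 95% and cover counting error only. No test was made, since regions are not replicates and only 1 pair of calls is independent. Geometry and intervals were tested on simulated data. The 20 lists first written for gene descriptions were rewritten for symbols, because the table holds symbols alone, and 7 lists were added after symbols and coverage had been seen. Genes were named by rule: the 10 highest regions by the smaller independent fold, the 3 highest of each list, the 5 highest shared and whole-gene regions, and the 3 widest and narrowest. None of the 682 gene identifiers was in the RefSeq table of assembly ASM3414082v1, and no genome was used here. Calculations ran in Python 3.11.15 with pandas 2.3.3, numpy 2.4.6 and scipy 1.17.1, and figures in matplotlib 3.10.9.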

Additional observations from a re-analysis of the deposited data

How the results depend on the processing

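Of 28 alternatives, 20 left a count within 1.5 times its reported value, or another value within its reported 95% interval, and 8 moved it. In both independent calls 49 start regions had a fold of at least 4. The count was 232 at a fold of at least 3 and 10 at a fold of at least 5. With 1 replicate left out only 1 call remained, which is a looser requirement. A fold of at least 4 was then reached by 135 start regions (IP6 over mock 6) or 186 (IP5 over mock 5). The width difference of 220 bp was 54 bp when the summed width of IP6 over mock 6 peaks replaced that of the merged region. The median distance of 66 bp in IP6 over mock 6 was 151 bp without replicate 6 (IP5 over mock 5) and 132 bp for the region's midpoint. The share of starts with more of the region on the gene side (77.7%) was 61.9% by the edges of the strongest IP6 over mock 6 peak. The number of regions across a start was 659 with starts recomputed from coordinates, 604 with the overlapping label alone and 897 with edges within 100 bp counted. The IP5 over mock 5 fold difference, whose interval includes 0 (-0.019), was 0.037 with mock 6 as control and 0.12 between the width quartiles. No paired analysis was possible because the results come from no test. How read depth bears on the folds was not tested.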
